A study of Mus musculus with 28 samples.

Results

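Hemogenic endothelium (HE) and endothelial cells (EC) of mouse embryos at E10.5 were compared gene by gene in 6 of the 28 RNA sequencing libraries of a study, 3 of each population. They are all the libraries that the labels give as E10.5 HE or E10.5 EC. The study sequenced RNA from pools of 100 sorted cells at E8.5, E9.5 and E10.5, in 9 populations along the passage from endothelium to blood. At E10.5 the other populations were pre-HSC I and pre-HSC II, where HSC stands for hematopoietic stem cell, and both HE and EC were also taken at E8.5 and E9.5. All embryos, those that gave EC as well as those that gave HE, had the genotype labelled 23GFP transgenic. The tissue of both groups was labelled AGM+VU, a term that the labels leave unexpanded, and no strain or sex is given in the sources used here. As background, 23GFP is known as a green fluorescent reporter driven by an enhancer in an intron of Runx1. The sort gates are not described in the sources used here, and if the reporter was part of them, a difference in Runx1 between HE and EC is not independent of the sort.

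Hemogenic endothelium is a small part of the endothelium of the dorsal aorta and of the vitelline and umbilical arteries. Its cells turn on a blood program under Runx1, lose their endothelial contacts and leave the vessel wall in clusters that hold the precursors of blood stem cells. Notch, BMP and inflammatory signalling and the onset of blood flow are known to take part, and the vessels concerned are arteries. The question put to the data was how far the HE cells of this stage differed from the EC of the same stage in blood, arterial, signalling, matrix and growth genes.

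The 6 libraries held between 16308918 and 28143388 counts, and between 14307 and 15715 genes had at least 1 count in them. Levels are given in CPM, counts brought to a common library total after scaling for composition, with the values of replicates 1, 2 and 3 in that order. At this depth 3 counts came to between 0.108 and 0.157 CPM. Across genes, log2 levels of 2 HE libraries correlated at 0.953 to 0.965, those of 2 EC libraries at 0.952 to 0.965 and those of an HE with an EC library at 0.925 to 0.948. The labels speak of biological replicates without naming litters or embryos, so p-values measure the spread between libraries of a population. That spread was estimated over all 28 libraries of the study and not over these 6 alone. HE replicate 1 and EC replicate 2 stood apart from the other libraries of their groups in collagen genes, with the values given below. Counts are therefore also given with both left out together, an alternative chosen after these values were seen, where it moves them by over 1.5 times.

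A gene was called where the edgeR quasi-likelihood test, adjusted by the Benjamini-Hochberg method over the 15238 genes tested, gave an adjusted p under 0.05. Differences are log2 values of HE minus EC, with their standard errors, for 3 libraries against 3. In all, 530 genes were called (3.48% of those tested), 321 higher in HE (2.11%) and 209 lower (1.37%). The counts of called list members below are to be read against these shares. The lists were written with earlier results of these data known, so an excess over these shares may in part follow from the choice of members. That part was not tested. The higher calls were also the larger ones, with 179 at least 4-fold, against 67 of the lower calls. Of the higher genes, 64 had a mean under 1 CPM in EC, and 20 of the lower genes had a mean under 1 CPM in HE. Complete separation of the 3 HE from the 3 EC values was seen in 317 of the 321 higher and 202 of the 209 lower genes, and in 20.4% of all genes tested, 11.4% with HE above and 8.96% with HE below. The number of calls was 314 without HE replicate 2, 302 without HE replicate 3, 285 without EC replicate 1 and 284 without EC replicate 3, of which 301, 281, 265 and 264 were among the 530. With only the 6 libraries in the fit 520 genes were called, and 360 of them were among the 530. Because each library is a bulk pool, fewer cells that express a gene and less of its RNA per cell cannot be told apart, here and in all results that follow.

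**Figure D1:**
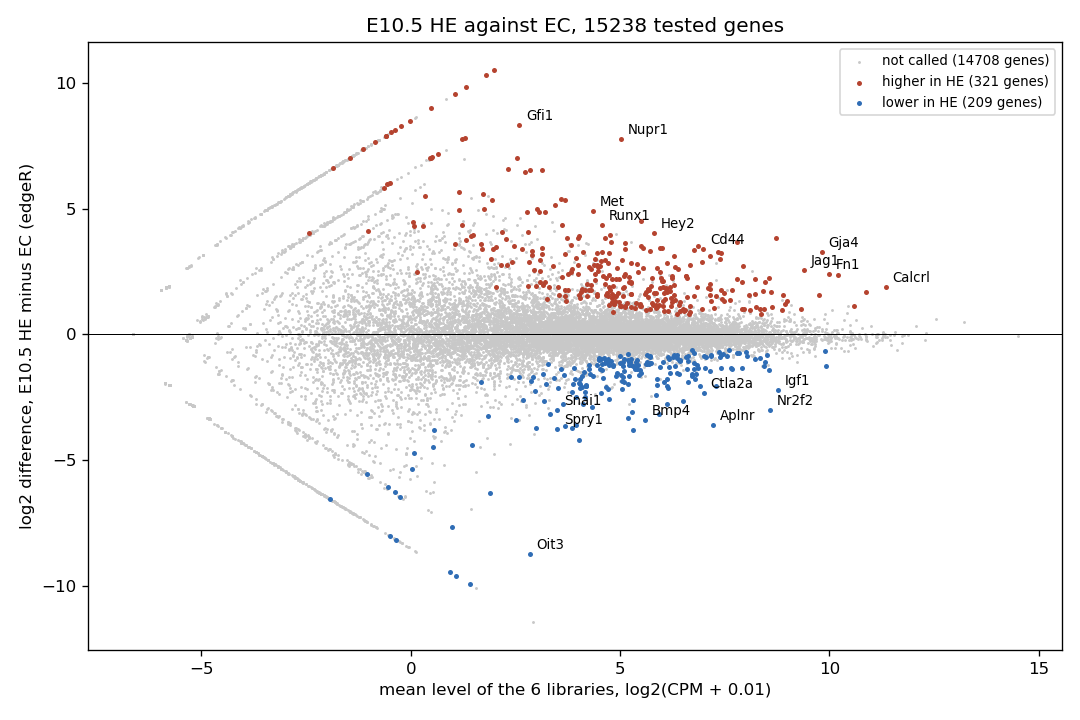
Log2 difference between HE and EC against the mean level over both groups (log2 of CPM plus 0.01), 1 point per tested gene, with the 530 called genes coloured by direction. The called genes above 0 outnumber those below (321 against 209), and many of them lie farther from 0.

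Blood transcription factors made up some of the clearest rises. Of 29 tested members of the list of hematopoietic transcription factors 9 were called higher and the other 20 did not pass the test. The median log2 difference of the 29 was 1.56, against -0.00480 for all genes tested. The 9 were Runx1, Gfi1, Gata2, Gata3, Ikzf2, Myb, Meis1, Cbfa2t3 and Bcl11a. Runx1, the factor required for blood to form from endothelium (mm9 chr16:92601711-92826319), measured 39.5, 43 and 52.3 CPM in HE and 1.81, 2.51 and 2.21 CPM in EC. Its HE libraries were all far above its EC libraries, by log2 4.37 ± 0.40 (SE, edgeR adjusted p = 2.98e-07). Ikzf2, the zinc finger protein Helios (mm9 chr1:69577784-69732534), measured 42.4, 50.5 and 60.8 CPM in HE and 3.22, 7.2 and 1.56 CPM in EC. The 2 groups did not overlap, and the log2 difference was 3.68 ± 0.45 (SE, edgeR adjusted p = 1.39e-05). Cbfa2t3, a corepressor also known as Eto2, measured 102, 101 and 115 CPM in HE and 38.9, 37.2 and 22.8 CPM in EC. Every HE library was above every EC library, by log2 1.68 ± 0.26 (SE, edgeR adjusted p = 2.37e-04). Gata2, which is needed for the formation and upkeep of blood stem cells, differed by log2 1.57 ± 0.21 (SE, edgeR adjusted p = 4.79e-05). Gfi1, a repressor that acts downstream of Runx1, had 863 counts summed over HE and 2 summed over EC, a ratio of 379 (95% counting interval 105 to 3137) after scaling for depth.

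Other factors that act with Runx1 in blood passed the test less firmly or not at all, whatever the size of their difference. Myb, which is needed for adult-type blood, measured 13.5, 4.18 and 5.49 CPM in HE and 0.602, 2.09 and 0.754 CPM in EC. The groups did not overlap, the HE values were uneven, and the log2 difference was 2.77 ± 0.74 (SE, edgeR adjusted p = 0.035). Myb lost its call without HE replicate 1 (edgeR adjusted p = 0.166), HE replicate 3 (0.0522), EC replicate 1 (0.156) or EC replicate 3 (0.15). Cbfb, the partner subunit of Runx1 in DNA binding, measured 77.8, 58.7 and 95.1 CPM in HE and 73.5, 98 and 73.6 CPM in EC. Those groups overlapped, and the log2 difference was -0.08 ± 0.30 (SE, edgeR adjusted p = 0.957), with a sign that changed when HE replicate 2 or EC replicate 2 was left out. Tal1, Lyl1 and Lmo2, which form a complex at blood and endothelial enhancers, overlapped between the groups at log2 0.58 ± 0.31, 0.51 ± 0.44 and 0.29 ± 0.35. The ETS factors Fli1 and Erg, which sit in the same complexes, had edgeR adjusted p of 0.655 and 0.961. Their signs did not hold under every alternative, since Erg turned positive without HE replicate 1 or EC replicate 3 and Fli1 negative without HE replicate 1 and EC replicate 2 together. Ets1 alone of the 17 ETS and SoxF factors tested was called, and it fell, measuring 249.7, 244 and 292 CPM in HE and 461, 534 and 388 CPM in EC. No HE value reached an EC value, and the log2 difference was -0.81 ± 0.21 (SE, edgeR adjusted p = 0.0284). Ets1 lost its call without HE replicate 1 (edgeR adjusted p = 0.0885), HE replicate 2 (0.126), HE replicate 3 (0.051), EC replicate 1 (0.065) or EC replicate 2 (0.127). It was also not called without HE replicate 1 and EC replicate 2 together. Gfi1b, the relative of Gfi1 active in red cells and platelets, measured 0.072, 0.197 and 1.49 CPM in HE and 0.129, 0.0522 and 0 CPM in EC, with no call (log2 3.09 ± 1.38 (SE, edgeR adjusted p = 0.275)). Spi1, the myeloid factor PU.1, had 39 counts over the HE and 1 over the EC libraries (edgeR adjusted p = 0.118).

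Stem cell regulators gave 9 higher calls among 30 tested, and the other 21 did not pass the test. Their median log2 difference was 0.24. The lower calls numbered 1 without HE replicate 3. Gpr56, an adhesion receptor required for blood stem cell formation in fish, measured 44.3, 40.5 and 58.8 CPM in HE and 4.77, 4.33 and 6.18 CPM in EC. The groups were far apart, by log2 3.23 ± 0.49 (SE, edgeR adjusted p = 2.30e-04). Nkx2-3, a homeobox factor of spleen and gut vessels, measured 26.5, 31.8 and 30.7 CPM in HE and 1.07, 3.5 and 1.71 CPM in EC. HE was above EC in each library, and the log2 difference was 3.83 ± 0.58 (SE, edgeR adjusted p = 2.98e-04). Angpt1, the ligand of the endothelial receptor Tie2, measured 49.9, 58.1 and 31.8 CPM in HE and 4.99, 3.86 and 0.905 CPM in EC. Again no values overlapped, with a log2 difference of 3.83 ± 0.62 (SE, edgeR adjusted p = 3.92e-04). Meis1, a homeobox partner of Hox proteins (mm9 chr11:18780431-18918972), measured 90.9, 152 and 106 CPM in HE and 33.8, 42.8 and 41.7 CPM in EC. All its HE values were above its EC values, by log2 1.56 ± 0.25 (SE, edgeR adjusted p = 3.01e-04). Mecom, also known as Evi1, differed by log2 2.19 ± 0.39 (SE, edgeR adjusted p = 9.69e-04). Hlf, a marker of blood stem cells and their precursors, measured 17.1, 9.93 and 20.4 CPM in HE and 3.52, 0.574 and 1.01 CPM in EC. Its groups did not overlap, with a log2 difference of 3.19 ± 0.85 (SE, edgeR adjusted p = 0.0353). Hlf lost its call without HE replicate 1 (edgeR adjusted p = 0.0613), HE replicate 3 (0.106), EC replicate 2 (0.141) or EC replicate 3 (0.15). Mllt3 and Procr were also among the 9. Mllt3 lost its call without EC replicate 1 (edgeR adjusted p = 0.060) or EC replicate 3 (0.0631).

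Runx proteins bind the core letters TGTGGT, and the window of 250 bases before the start of Meis1 is shown because it holds them in a called stem cell gene. The sequence is from RefSeq, build GRCm38.p6, which is not the mm9 build of the count table, at chr11:19018970-19019219, minus strand, and the match is in capitals. It begins 166 bases before the start.

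Meis1: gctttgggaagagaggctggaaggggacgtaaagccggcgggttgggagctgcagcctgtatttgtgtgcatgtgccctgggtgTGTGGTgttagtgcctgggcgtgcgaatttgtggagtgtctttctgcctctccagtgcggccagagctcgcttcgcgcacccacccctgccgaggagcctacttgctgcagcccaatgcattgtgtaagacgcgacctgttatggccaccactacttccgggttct

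Windows of this kind were matched by symbol for 12009 of the 15238 tested genes, 250 of them among the 321 higher and 160 among the 209 lower genes. On either strand TGTGGT was present in 8.4% of the windows of higher genes, 12.5% of those of lower genes and 10.9% of all 12009. The share among higher genes was below that of all genes tested, which describes these letters in this window alone.

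Surface antigens that mark emerging blood gave 5 higher calls among 29 tested, and the other 24 did not pass the test. Their median log2 difference was 0.97. This count of higher calls was 3 without HE replicate 1 and EC replicate 2 together and 2 without EC replicate 1 or 3. Itgb3, the integrin subunit of CD61, measured 19.4, 22.4 and 32.1 CPM in HE and 0.989, 2.35 and 1.86 CPM in EC. Its lowest HE value lay well above its highest EC value, and the log2 difference was 3.84 ± 0.39 (SE, edgeR adjusted p = 7.31e-07). Cd44, the hyaluronan receptor, differed by log2 3.38 ± 0.32 (SE, edgeR adjusted p = 4.04e-07). Spn, the sialomucin CD43, measured 4.75, 4.91 and 3.38 CPM in HE and 0.043, 0.104 and 0.101 CPM in EC. The levels were low, with EC below the value of 3 counts, and the log2 difference was 5.66 ± 1.38 (SE, edgeR adjusted p = 0.0206). Spn lost its call without EC replicate 1 (edgeR adjusted p = 0.102), EC replicate 2 (0.0728) or EC replicate 3 (0.0818). Procr, the endothelial protein C receptor, measured 83, 122 and 107 CPM in HE and 8.64, 40.6 and 17 CPM in EC. No EC value reached an HE value, though EC replicate 2 stood above the other EC libraries, and the log2 difference was 2.24 ± 0.48 (SE, edgeR adjusted p = 0.00634). Procr lost its call without EC replicate 1 (edgeR adjusted p = 0.0503) or EC replicate 3 (0.0508). Cxcr4, the receptor of the chemokine Cxcl12, was higher by log2 2.39 ± 0.60 (SE, edgeR adjusted p = 0.0224). Cxcr4 lost its call without HE replicate 2 (edgeR adjusted p = 0.0578), HE replicate 3 (0.0752), EC replicate 1 (0.107) or EC replicate 3 (0.106). Itga2b, which encodes CD41, measured 3.57, 3.29 and 4.74 CPM in HE and 2.92, 3.81 and 2.51 CPM in EC. The 2 groups overlapped, and the log2 difference was 0.33 ± 0.44 (SE, edgeR adjusted p = 0.812). Ptprc, which encodes CD45, measured 1.58, 0.491 and 0.0439 CPM in HE and 0.043, 0.209 and 0 CPM in EC. HE replicate 3 fell within the EC range and the gene did not pass the test with all libraries (edgeR adjusted p = 0.0952), but it did without HE replicate 3 (edgeR adjusted p = 0.0319).

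Genes of leukocyte signalling and of the leukocyte cytoskeleton gave 7 higher calls and 1 lower call among 35 tested, with a median log2 difference of 0.16. Its higher calls came to 4 without EC replicate 2, or without HE replicate 1 and EC replicate 2 together. Plcg2, a phospholipase downstream of blood cell receptors, measured 50.2, 69.8 and 73.8 CPM in HE and 5.07, 4.59 and 5.83 CPM in EC. Every HE library was far above every EC library, by log2 3.64 ± 0.72 (SE, edgeR adjusted p = 0.00308). Laptm5, a lysosomal protein of blood cells, measured 75.3, 142 and 103 CPM in HE and 30.4, 37.6 and 22.9 CPM in EC. HE and EC did not overlap and HE replicate 2 was the highest, with a log2 difference of 1.82 ± 0.33 (SE, edgeR adjusted p = 0.00114). Ptpn6, the phosphatase SHP-1, measured 13.3, 42.8 and 16.3 CPM in HE and 2.88, 5.85 and 4.22 CPM in EC. HE replicate 2 again stood highest, no values overlapped, and the log2 difference was 2.48 ± 0.46 (SE, edgeR adjusted p = 0.00163). Dock2, an activator of Rac in leukocytes, measured 10.01, 8.45 and 3.91 CPM in HE and 0.215, 0.104 and 0.201 CPM in EC. Its EC values lay near the value of 3 counts, and the log2 difference was 5.37 ± 1.03 (SE, edgeR adjusted p = 0.00221). Coro1a, an actin-binding coronin, rose by log2 1.93 ± 0.43 (SE, edgeR adjusted p = 0.00952). Coro1a lost its call without EC replicate 2 (edgeR adjusted p = 0.0578). Samsn1, an adaptor known from B cells and mast cells, moved the other way and measured 17.3, 9.93 and 6.32 CPM in HE and 76, 55.2 and 75 CPM in EC. Each EC value was above each HE value, with a log2 difference of -2.62 ± 0.40 (SE, edgeR adjusted p = 2.50e-04). Sla and Btk were the other higher calls. Sla lost its call without HE replicate 1 (edgeR adjusted p = 0.174), EC replicate 1 (0.124), EC replicate 2 (0.0606) or EC replicate 3 (0.106). Btk lost its call without HE replicate 1 (edgeR adjusted p = 0.0885), HE replicate 3 (0.11), EC replicate 1 (0.132), EC replicate 2 (0.131) or EC replicate 3 (0.0751).

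**Figure D2:**
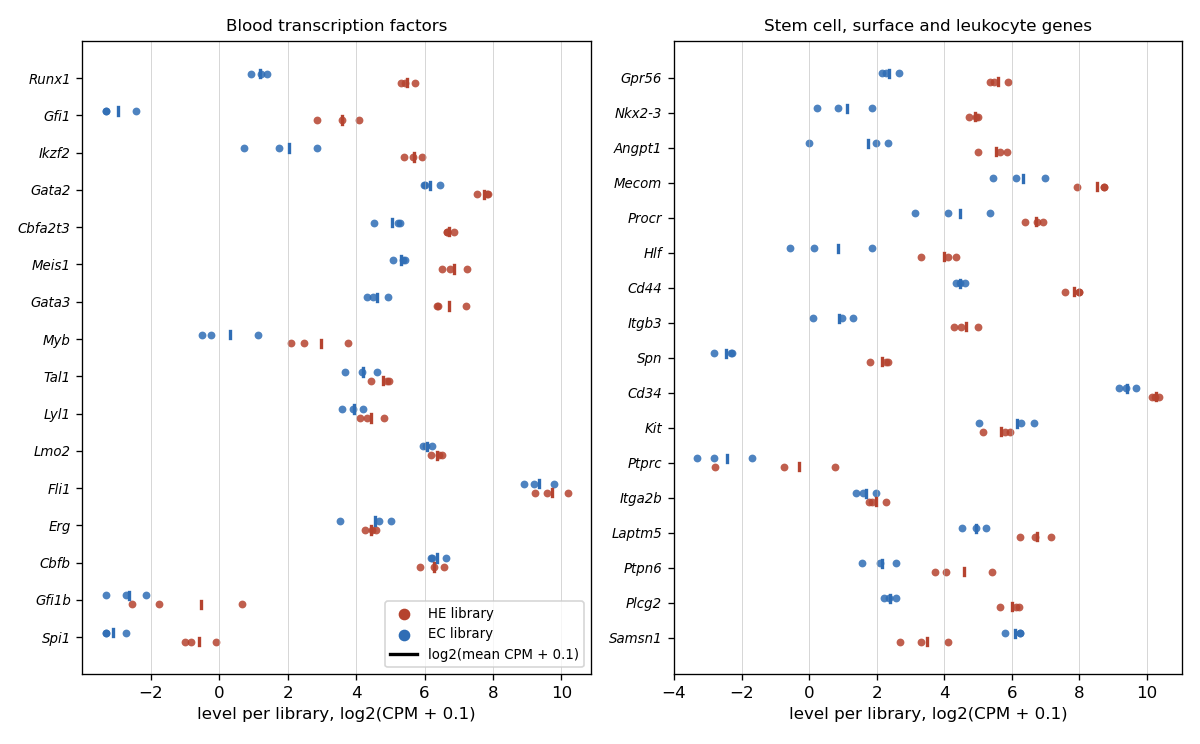
Levels of blood genes in each of the 3 HE and 3 EC libraries (log2 of CPM plus 0.1), 1 point per library. The Runx1 points of HE lie between 39.5 and 52.3 CPM and those of EC between 1.81 and 2.51 CPM, while the Cbfb points of both groups mix.

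All called arterial genes were higher in HE. Of 28 tested members 15 were called higher and the other 13 did not pass the test, and the median log2 difference was 2.35. In 26 of the 28 every HE library was above every EC library, which held for 11.4% of all genes tested. With fewer libraries the higher calls were 8 without EC replicate 1 and 7 without EC replicate 3. The connexins Gja4 and Gja5 form the gap junctions of arterial endothelium. Gja4 (mm9 chr4:126988664-126991283) measured 1607, 1451 and 1859.8 CPM in HE and 153, 226 and 122 CPM in EC. Its HE values were several times its EC values in every pairing, by log2 3.30 ± 0.38 (SE, edgeR adjusted p = 5.28e-06). Gja5 (mm9 chr3:96836325-96857557) measured 369, 439.6 and 435 CPM in HE and 23.6, 54.2 and 19.3 CPM in EC. Again the groups were far apart, by log2 3.68 ± 0.59 (SE, edgeR adjusted p = 3.47e-04). Vegfc, a growth factor best known for lymphatic growth, measured 124, 159 and 128 CPM in HE and 11.2, 39.2 and 13.8 CPM in EC. EC replicate 2 was the highest of EC and still below all HE libraries, with a log2 difference of 2.68 ± 0.45 (SE, edgeR adjusted p = 6.19e-04). Tm4sf1, a membrane protein of endothelial cells, measured 295, 325 and 309 CPM in HE and 23.2, 51.4 and 24.4 CPM in EC. No overlap was seen, and the log2 difference was 3.23 ± 0.62 (SE, edgeR adjusted p = 0.00221). Efnb2, the ephrin that marks arteries, differed by log2 2.25 ± 0.50 (SE, edgeR adjusted p = 0.00933). Efnb2 lost its call without EC replicate 3 (edgeR adjusted p = 0.0572). Nrp1, a coreceptor for VEGF and semaphorins, differed by log2 1.57 ± 0.36 (SE, edgeR adjusted p = 0.0122). Nrp1 lost its call without EC replicate 1 (edgeR adjusted p = 0.0834) or EC replicate 3 (0.0631). Sox17, an arterial factor needed for HE, measured 29.4, 33.3 and 36.8 CPM in HE and 11.7, 18.7 and 12 CPM in EC. Its groups did not overlap, but it did not pass the test (log2 1.23 ± 0.44 (SE, edgeR adjusted p = 0.142)).

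In the Notch pathway, in which ligands on 1 cell activate receptors on the next, 5 of 30 tested members rose and the other 25 did not pass the test. Of the 5, Jag1, Jag2, Hey1 and Hey2 are also members of the arterial list and are counted in its calls above. Only Nrarp was called outside that list. The median log2 difference was 0.44. Calls of higher members numbered 3 without HE replicate 3 and 2 without EC replicate 1 or 3. Left-out libraries changed the lower calls to 1 without HE replicate 1, or without HE replicate 1 and EC replicate 2 together. Among ligands, Jag1 (mm9 chr2:136907187-136942256) measured 1375, 1236 and 862 CPM in HE and 161, 266 and 153 CPM in EC. HE exceeded EC in each library, with a log2 difference of 2.58 ± 0.35 (SE, edgeR adjusted p = 4.97e-05). Jag2, the second jagged ligand, measured 13.6, 15 and 11.1 CPM in HE and 2.49, 3.18 and 1.06 CPM in EC. Its groups did not overlap, and the log2 difference was 2.56 ± 0.64 (SE, edgeR adjusted p = 0.0214). Jag2 lost its call without HE replicate 2 (edgeR adjusted p = 0.0659), EC replicate 1 (0.0776) or EC replicate 3 (0.123). Dll4, the delta ligand of arteries, measured 70.9, 123 and 115 CPM in HE and 13.7, 32.1 and 16.3 CPM in EC. HE was above EC in each library without passing the test (log2 2.32 ± 0.67 (SE, edgeR adjusted p = 0.0554)). Exons of Dll4 overlap those of Gm14207 on the opposite strand over 217 bases, and Gm14207 averaged 37.4 CPM in HE and 4.68 CPM in EC, so that their reads may be mixed. The receptor Notch1 measured 146, 201 and 180.1 CPM in HE and 73.6, 145 and 122 CPM in EC. There was no overlap, the difference was small (log2 0.63 ± 0.26 SE), and the edgeR adjusted p was 0.214. Of the targets, Hey2 (mm9 chr10:30552165-30562589) measured 98.7, 113 and 106 CPM in HE and 2.24, 12.7 and 4.22 CPM in EC. HE was close together and EC spread widely below it, with a log2 difference of 4.06 ± 0.75 (SE, edgeR adjusted p = 0.0015). Hey1 measured 63.4, 77 and 128 CPM in HE and 12.2, 27.2 and 17.3 CPM in EC. No values overlapped, and the log2 difference was 2.24 ± 0.50 (SE, edgeR adjusted p = 0.00877). Hey1 lost its call without HE replicate 3 (edgeR adjusted p = 0.0624), EC replicate 1 (0.0677) or EC replicate 3 (0.052). Nrarp, a feedback inhibitor of the pathway, rose by log2 1.61 ± 0.40 (SE, edgeR adjusted p = 0.0208). Nrarp lost its call without HE replicate 3 (edgeR adjusted p = 0.0982), EC replicate 1 (0.128) or EC replicate 3 (0.0875). Hes1, another target, measured 103, 48.6 and 42.5 CPM in HE and 61.1, 30.7 and 36.6 CPM in EC. Those groups overlapped (log2 0.59 ± 0.41 (SE, edgeR adjusted p = 0.537)), and the sign turned when HE replicate 1 and EC replicate 2 were both left out.

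Rbpj, the DNA-binding partner of Notch receptors, recognises the core letters TGGGAA. The window before the start of Hey2 is shown because Hey2 had the largest rise of the Notch list. It lies at chr10:30842784-30843033, minus strand (GRCm38.p6, RefSeq), and the capitals mark the complement TTCCCA, which begins 207 bases before the start.

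Hey2: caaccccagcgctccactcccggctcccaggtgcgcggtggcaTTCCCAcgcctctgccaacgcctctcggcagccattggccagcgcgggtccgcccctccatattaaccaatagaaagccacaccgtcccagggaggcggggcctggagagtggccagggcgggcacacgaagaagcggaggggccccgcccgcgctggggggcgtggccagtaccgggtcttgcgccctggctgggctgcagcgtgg

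Either strand of TGGGAA was found in 25.2% of the windows of higher genes, 16.9% of those of lower genes and 20.7% of all 12009. In the Notch list 4 of 22 windows held it (18.2%), which was below the share of all. Letters of other factors were scanned as well. Among higher genes CCACCC of KLF factors was in 43.2% against 33.2% of all, and TGAGTCA of AP-1 in 6% against 3.16%. GGAAGT of ETS factors was less common there, in 19.2% against 22.9% of all.

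Called venous genes were lower in HE with 1 exception. Of 26 tested venous and lymphatic genes 7 fell, 1 rose and 18 did not pass the test, with a median log2 difference of -0.95. The higher calls numbered 2 without EC replicate 2, or without HE replicate 1 and EC replicate 2 together. In 14 of the 26 every HE library was below every EC library, which held for 8.96% of all genes tested. Aplnr, the apelin receptor (mm9 chr2:84976517-84980080), measured 45.2, 8.06 and 14.4 CPM in HE and 310.3, 193 and 326 CPM in EC. HE replicate 1 was the highest of HE and still far below EC, with a log2 difference of -3.61 ± 0.57 (SE, edgeR adjusted p = 3.01e-04). Nr2f2, the factor COUP-TFII that sets venous identity (mm9 chr7:77496836-77511632), measured 195, 16.1 and 39.8 CPM in HE and 921, 569 and 546 CPM in EC. All HE values were below the EC values, but HE replicate 1 stood well above the other HE libraries, and the log2 difference was -3.02 ± 0.72 (SE, edgeR adjusted p = 0.0155). Nr2f2 lost its call without HE replicate 2 (edgeR adjusted p = 0.0854), HE replicate 3 (0.105) or EC replicate 1 (0.0573). Nrp2, a neuropilin of veins and lymphatics, measured 34.5, 9.09 and 9.65 CPM in HE and 89.9, 111 and 165 CPM in EC. Once more HE replicate 1 was the highest of HE without reaching EC, with a log2 difference of -2.78 ± 0.49 (SE, edgeR adjusted p = 0.00102). Flt4, the receptor VEGFR3, measured 141, 98.5 and 101 CPM in HE and 287, 330.3 and 264 CPM in EC. No values overlapped, and the log2 difference was -1.37 ± 0.28 (SE, edgeR adjusted p = 0.00375). Bmp4 is given below, and Ctla2a, whose reads may be shared with its near copy Ctla2b, fell by log2 -2.31 ± 0.35 (SE, edgeR adjusted p = 2.03e-04). Ephb4, the venous receptor of Efnb2, measured 50.3, 82.6 and 101 CPM in HE and 62.8, 144 and 124 CPM in EC. Those values overlapped (log2 -0.50 ± 0.37 (SE, edgeR adjusted p = 0.576)). The member that rose was Vwf, the von Willebrand factor, which measured 397, 449.8 and 419 CPM in HE and 53, 89.2 and 49.5 CPM in EC. Its groups were far apart, with a log2 difference of 2.72 ± 0.49 (SE, edgeR adjusted p = 0.00106).

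**Figure D3:**
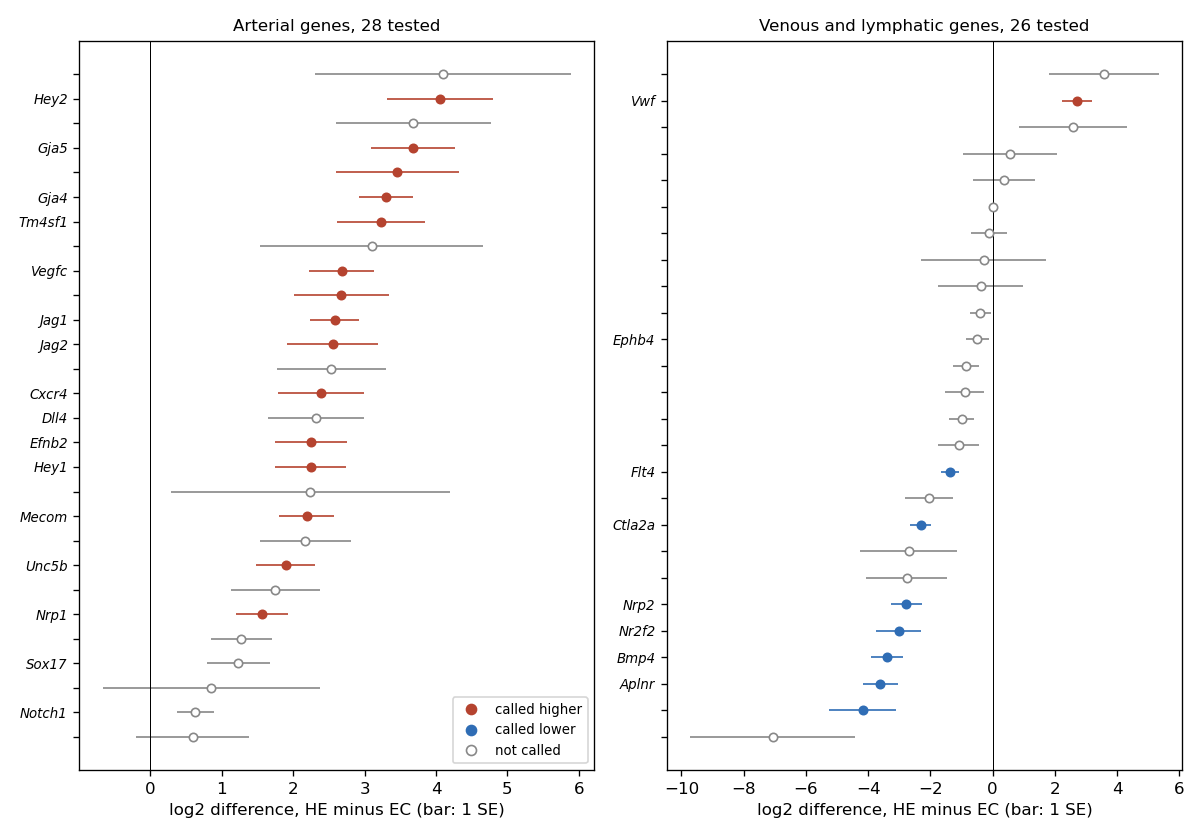
Log2 differences (HE minus EC) of the arterial and the venous and lymphatic genes, 1 point per gene with its standard error, and names on the genes that the text describes. The arterial genes have a median of 2.35 and the venous and lymphatic genes one of -0.95.

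The general endothelial genes that were called were all higher in HE. Of 35 tested pan-endothelial genes 4 rose and the other 31 did not pass the test, with a median log2 difference of 0.50, and in 18 of the 35 every HE library was above every EC library, against 11.4% of all genes tested. This count of higher calls was 2 without HE replicate 1 and EC replicate 2 together and 1 without EC replicate 3. Besides Vwf the called genes were Calcrl, Clec14a and Icam2. Calcrl, the receptor for adrenomedullin, measured 4914, 3581 and 3752 CPM in HE and 1297, 1153 and 875 CPM in EC. No overlap was seen, and the log2 difference was 1.88 ± 0.42 (SE, edgeR adjusted p = 0.010). Calcrl lost its call without EC replicate 3 (edgeR adjusted p = 0.0703). Clec14a, a lectin of endothelial cells, rose by log2 1.73 ± 0.40 (SE, edgeR adjusted p = 0.0114). Clec14a lost its call without EC replicate 3 (edgeR adjusted p = 0.0622). Icam2, an adhesion molecule, rose by log2 1.09 ± 0.26 (SE, edgeR adjusted p = 0.0148). Icam2 lost its call without EC replicate 2 (edgeR adjusted p = 0.0889) or EC replicate 3 (0.0882). The adhesion molecule Pecam1 measured 696, 468 and 714 CPM in HE and 432, 211 and 277 CPM in EC. Each HE library was above EC, but the gene did not pass the test with all libraries (log2 1.03 ± 0.32 (SE, edgeR adjusted p = 0.0817)), while it did without EC replicate 1 (edgeR adjusted p = 0.0435). Cd34, found on endothelium and blood progenitors alike, also separated without passing (log2 0.83 ± 0.26 (SE, edgeR adjusted p = 0.0747)).

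Signalling ligands and receptors moved in both directions. In the VEGF and angiopoietin list 4 of 19 tested members rose and 2 fell, with a median log2 difference of 0.48. Its higher calls came to 2 without EC replicate 1 or 3. The risers were Angpt1, Vegfc, Nrp1 and Vegfa, and the receptors Flt4 and Nrp2 fell. Vegfa measured 10.7, 12.1 and 19.9 CPM in HE and 3.44, 3.18 and 4.22 CPM in EC. Its values were low in both groups without overlap, and the log2 difference was 1.97 ± 0.50 (SE, edgeR adjusted p = 0.0251). Vegfa lost its call without HE replicate 3 (edgeR adjusted p = 0.135), EC replicate 1 (0.102), EC replicate 2 (0.0982) or EC replicate 3 (0.0712).

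BMP and TGF-beta signalling gave 8 higher calls and 1 lower call among 40 tested, with a median log2 difference of 0.22. With fewer libraries the lower calls were 2 without HE replicate 2. The ligand Bmp4 fell. Its gene (mm9 chr14:47003196-47010274) measured 9.04, 11.9 and 4.12 CPM in HE and 102, 62.2 and 101 CPM in EC. Each EC value was far above each HE value, with a log2 difference of -3.40 ± 0.51 (SE, edgeR adjusted p = 2.12e-04). Feedback inhibitors of the pathway rose. Smad6 measured 38.2, 34.1 and 42 CPM in HE and 2.11, 9.5 and 5.18 CPM in EC. The groups did not overlap, and the log2 difference was 2.77 ± 0.49 (SE, edgeR adjusted p = 0.00102). Smad7 measured 85.2, 53.8 and 78.6 CPM in HE and 14.9, 11.2 and 13.3 CPM in EC. Its lowest HE value was several times its highest EC value, with a log2 difference of 2.47 ± 0.41 (SE, edgeR adjusted p = 4.90e-04). Id1, a direct target of BMP receptors, measured 146, 107 and 124 CPM in HE and 25, 24.2 and 27.1 CPM in EC. EC was tightly grouped and far below HE, with a log2 difference of 2.31 ± 0.40 (SE, edgeR adjusted p = 7.97e-04). Ltbp1, which holds latent TGF-beta in the matrix, measured 71.4, 167 and 115 CPM in HE and 6.62, 21.9 and 3.82 CPM in EC. HE varied between libraries but stayed above EC, with a log2 difference of 3.45 ± 0.54 (SE, edgeR adjusted p = 2.98e-04). Fstl1, a secreted follistatin-like protein, measured 2903, 2992 and 2638 CPM in HE and 938, 1034 and 709 CPM in EC. It separated fully, with a log2 difference of 1.67 ± 0.29 (SE, edgeR adjusted p = 7.82e-04). Bmper, a secreted modulator of BMP in endothelium, measured 12.1, 13.6 and 17.4 CPM in HE and 0.043, 0.365 and 0.0503 CPM in EC. EC was near 0 in each library, and the log2 difference was 6.54 ± 1.59 (SE, edgeR adjusted p = 0.0181). Bmper lost its call without EC replicate 1 (edgeR adjusted p = 0.0978) or EC replicate 3 (0.0945). Bmpr1a and Bmp1 also rose. Bmp1 lost its call without HE replicate 3 (edgeR adjusted p = 0.0737) or EC replicate 1 (0.0908).

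In the Wnt list 3 of 41 tested members rose and 2 fell, with a median log2 difference of 0.08. Wnt11, a noncanonical ligand, measured 3.49, 5.99 and 9.96 CPM in HE and 0.043, 0.0522 and 0.302 CPM in EC. Its EC values were near the value of 3 counts, and the log2 difference was 5.57 ± 0.90 (SE, edgeR adjusted p = 4.15e-04). Sfrp2, a secreted modulator of Wnt, measured 36.9, 19.9 and 25.3 CPM in HE and 2.84, 1.62 and 5.43 CPM in EC. No overlap was seen, with a log2 difference of 3.05 ± 0.52 (SE, edgeR adjusted p = 7.25e-04). Dkk2, another secreted modulator, rose by log2 2.36 ± 0.63 (SE, edgeR adjusted p = 0.0336). Dkk2 lost its call without any 1 of the 6 libraries (edgeR adjusted p from 0.0578 to 0.156). Lef1, a transcription factor of the canonical pathway, measured 9.54, 4.37 and 8.78 CPM in HE and 53.1, 39.2 and 43.8 CPM in EC. HE was low in each library, with a log2 difference of -2.58 ± 0.50 (SE, edgeR adjusted p = 0.00272). Lgr4, a receptor of R-spondins, measured 14.9, 5.31 and 8.16 CPM in HE and 51.6, 42.7 and 33.8 CPM in EC. It too was lower in each HE library, by log2 -2.17 ± 0.43 (SE, edgeR adjusted p = 0.00303).

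FGF and ERK feedback genes gave 2 higher calls and 1 lower call among 23 tested, with a median log2 difference of -0.34. Calls of higher members numbered 1 without EC replicate 1, or without HE replicate 1 and EC replicate 2 together. Left-out libraries changed the lower calls to 2 without HE replicate 1. Spry1, a feedback inhibitor of receptor tyrosine kinases, measured 2.59, 0.884 and 1.14 CPM in HE and 23.6, 16.3 and 23 CPM in EC. The groups were far apart, with a log2 difference of -3.75 ± 0.46 (SE, edgeR adjusted p = 1.49e-05). Fgfr1 measured 107, 137 and 112 CPM in HE and 34.9, 65 and 56.2 CPM in EC. HE was above EC throughout, by log2 1.19 ± 0.24 (SE, edgeR adjusted p = 0.00448). Fgfr1 lost its call without EC replicate 1 (edgeR adjusted p = 0.0503). Ier3, an early response gene, measured 65.5, 24.1 and 84.2 CPM in HE and 9.03, 10.2 and 13.6 CPM in EC. Its HE values were uneven but all above EC, by log2 2.40 ± 0.50 (SE, edgeR adjusted p = 0.00485). Of the IGF list, 2 of 16 tested members rose, Igf2 and Insr, and Igf1 fell. The higher calls numbered 1 without HE replicate 2 or EC replicate 1, or without HE replicate 1 and EC replicate 2 together and 0 without HE replicate 3 or EC replicate 3. Igf1 measured 209.6, 97.7 and 161 CPM in HE and 834, 636 and 701 CPM in EC. Each EC value was well above each HE value, with a log2 difference of -2.21 ± 0.34 (SE, edgeR adjusted p = 2.98e-04). Igf2, an imprinted growth factor, measured 2079.8, 1866 and 2349.8 CPM in HE and 1082, 974 and 845 CPM in EC. No values overlapped, with a log2 difference of 1.12 ± 0.25 (SE, edgeR adjusted p = 0.00972). Igf2 lost its call without HE replicate 3 (edgeR adjusted p = 0.0526) or EC replicate 3 (0.0668). Insr lost its call without HE replicate 2 (edgeR adjusted p = 0.117), HE replicate 3 (0.139), EC replicate 1 (0.206), EC replicate 2 (0.0809) or EC replicate 3 (0.0501).

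Among 43 tested chemokine and cytokine genes 3 fell and 1, Cxcr4, rose, with a median log2 difference of 0.37. This count of higher calls was 0 without HE replicate 2 or 3 or EC replicate 1 or 3, or without HE replicate 1 and EC replicate 2 together. Its lower calls came to 1 without HE replicate 1, 2 or 3 or EC replicate 2, or without HE replicate 1 and EC replicate 2 together. Kitl, the ligand of Kit, measured 36.2, 33.8 and 55.5 CPM in HE and 136, 145 and 186 CPM in EC. Each HE value was below each EC value, by log2 -1.89 ± 0.44 (SE, edgeR adjusted p = 0.0115). Kitl lost its call without HE replicate 1 (edgeR adjusted p = 0.0545), HE replicate 2 (0.0776) or EC replicate 3 (0.0543). Kit itself, the receptor of blood progenitors, overlapped between the groups and had an edgeR adjusted p of 0.583. Il10rb and Csf3r, receptor chains of interleukin and granulocyte factor signalling, fell by log2 -3.16 ± 0.73 and -1.68 ± 0.39 (edgeR adjusted p = 0.0117 and 0.0128). Il10rb lost its call without HE replicate 2 (edgeR adjusted p = 0.0706), HE replicate 3 (0.0855) or EC replicate 2 (0.0637). Csf3r lost its call without HE replicate 1 (edgeR adjusted p = 0.0611), HE replicate 3 (0.106) or EC replicate 2 (0.066).

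In the interferon and inflammatory list 8 of 46 tested members rose and the other 38 did not pass the test, with a median log2 difference of 0.46. With fewer libraries the higher calls were 5 without HE replicate 2 or 3 or EC replicate 3 and 4 without EC replicate 1 or 2, or without HE replicate 1 and EC replicate 2 together. Tapbp, which loads peptides onto MHC class I, measured 21.4, 37.5 and 24.7 CPM in HE and 10.3, 7.99 and 5.88 CPM in EC. HE and EC did not overlap, with a log2 difference of 1.79 ± 0.34 (SE, edgeR adjusted p = 0.00208). Ifitm1, Ifitm2 and Ifitm3, interferon-induced membrane proteins, rose by log2 2.40 ± 0.44, 1.02 ± 0.23 and 1.79 ± 0.30 (edgeR adjusted p = 0.00156, 0.0109 and 6.30e-04). They are close copies of each other, and their reads may be shared. Ifitm2 lost its call without EC replicate 2 (edgeR adjusted p = 0.0606) or EC replicate 3 (0.0869). Irf2, an interferon regulatory factor, rose by log2 0.93 ± 0.21 (SE, edgeR adjusted p = 0.00935). Irf2 lost its call without HE replicate 3 (edgeR adjusted p = 0.0601), EC replicate 1 (0.0573) or EC replicate 3 (0.0543).

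Complement and coagulation genes gave 7 higher calls and 1 lower call among 31 tested, with a median log2 difference of 1.22. Plat, the tissue plasminogen activator, measured 50.6, 47.4 and 59.5 CPM in HE and 12.7, 8.51 and 3.77 CPM in EC. EC was lower in each library, by log2 2.65 ± 0.49 (SE, edgeR adjusted p = 0.00174). Plaur, the urokinase receptor, measured 72.2, 99.5 and 54.9 CPM in HE and 33.5, 21.9 and 14.3 CPM in EC. Its groups did not overlap, with a log2 difference of 1.70 ± 0.34 (SE, edgeR adjusted p = 0.00345). F10, coagulation factor X, measured 17.5, 39.1 and 23.4 CPM in HE and 2.54, 8.87 and 3.62 CPM in EC. HE replicate 2 was the highest, no values overlapped, and the log2 difference was 2.41 ± 0.46 (SE, edgeR adjusted p = 0.00194). Serpinf1, a secreted serpin that restrains vessel growth, measured 255, 261 and 370.1 CPM in HE and 35.4, 27 and 28.5 CPM in EC. It stood far above EC in each HE library, by log2 3.29 ± 0.59 (SE, edgeR adjusted p = 0.00106). Tfpi, the inhibitor of the tissue factor pathway, fell and measured 83.9, 65.5 and 80.4 CPM in HE and 214, 180.4 and 229 CPM in EC. Every EC value was above every HE value, with a log2 difference of -1.44 ± 0.24 (SE, edgeR adjusted p = 5.72e-04). Vwf, Procr and F11r were the other risers.

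Genes of vascular tone gave 3 higher and 3 lower calls among 29 tested, with a median log2 difference of 0.96. In 14 of the 29 every HE library was above every EC library, against 11.4% of all genes tested, and in 6 below, against 8.96%. Calls of higher members numbered 1 without HE replicate 2 or 3 or EC replicate 3. Left-out libraries changed the lower calls to 1 without HE replicate 3 or EC replicate 3. Ptgis, prostacyclin synthase, measured 59, 55.5 and 66.9 CPM in HE and 19.1, 14.6 and 9.1 CPM in EC. HE was above EC in each library, by log2 2.08 ± 0.33 (SE, edgeR adjusted p = 3.46e-04). Pde2a, a phosphodiesterase of cyclic nucleotides (mm9 chr7:108570205-108661343), measured 9.36, 4.08 and 11.6 CPM in HE and 61.1, 79 and 70.00 CPM in EC. There HE was the lower group throughout, by log2 -3.07 ± 0.53 (SE, edgeR adjusted p = 7.82e-04). Ptgs1, the cyclooxygenase that makes the precursor of prostacyclin, measured 9.62, 6.98 and 2.59 CPM in HE and 27.1, 23.3 and 32.2 CPM in EC. It was also lower in each HE library, by log2 -2.10 ± 0.55 (SE, edgeR adjusted p = 0.0295). Ptgs1 lost its call without HE replicate 2 (edgeR adjusted p = 0.096), HE replicate 3 (0.162), EC replicate 1 (0.0649) or EC replicate 3 (0.0906).

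Junction genes were called in both directions. Of 31 tested connexin and junction genes 4 rose and 4 fell, with a median log2 difference of 0.17. The lower calls numbered 2 without HE replicate 1 or 3 or EC replicate 3 and 1 without HE replicate 1 and EC replicate 2 together. Besides Gja4 and Gja5, the tight junction protein Ocln rose and measured 94.3, 142 and 104 CPM in HE and 8.38, 12.8 and 10.2 CPM in EC. Its HE values were all far above EC, by log2 3.44 ± 0.36 (SE, edgeR adjusted p = 9.76e-07). F11r, the junctional adhesion molecule A, rose by log2 1.01 ± 0.28 (SE, edgeR adjusted p = 0.0435). F11r lost its call without any 1 of the 6 libraries (edgeR adjusted p from 0.0548 to 0.151). Gja1, the connexin 43 of many embryonic tissues, fell and measured 154, 105 and 148 CPM in HE and 279, 404 and 350.1 CPM in EC. No HE value reached an EC value, with a log2 difference of -1.35 ± 0.26 (SE, edgeR adjusted p = 0.00207). Dsp, the desmosomal protein desmoplakin, which was outside that list, measured 17.3, 31.2 and 21.9 CPM in HE and 0.043, 0.626 and 1.01 CPM in EC. It ranked among the 15 largest rises, by log2 5.41 ± 0.74 (SE, edgeR adjusted p = 6.61e-05).

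Axon guidance genes, which also steer vessels, gave 4 higher and 3 lower calls among 38 tested, with a median log2 difference of 0.11. This count of higher calls was 1 without EC replicate 1 or 3. Slit2, a repulsive ligand, measured 32.9, 56.4 and 49.2 CPM in HE and 8.38, 8.61 and 13.2 CPM in EC. No values overlapped, with a log2 difference of 2.20 ± 0.31 (SE, edgeR adjusted p = 1.07e-04). Unc5b, a netrin receptor of arterial tip cells, rose by log2 1.89 ± 0.42 (SE, edgeR adjusted p = 0.0086). Unc5b lost its call without EC replicate 1 (edgeR adjusted p = 0.0649) or EC replicate 3 (0.0631). Flrt2 and Flrt3, membrane ligands of Unc5 receptors, both fell. Flrt2 measured 18.8, 9.63 and 46.2 CPM in HE and 108, 161 and 198 CPM in EC. HE replicate 3 was the highest of HE and still below EC, with a log2 difference of -2.65 ± 0.50 (SE, edgeR adjusted p = 0.0018). Flrt3 measured 46, 22.2 and 26.8 CPM in HE and 108, 101 and 116 CPM in EC. All its HE values lay below EC, by log2 -1.78 ± 0.30 (SE, edgeR adjusted p = 6.30e-04). Epha4, an Eph receptor, measured 21.5, 27.3 and 29.5 CPM in HE and 1.12, 4.8 and 0.754 CPM in EC. EC replicate 2 was the highest of EC, no values overlapped, and the log2 difference was 3.55 ± 0.76 (SE, edgeR adjusted p = 0.00671). Epha4 lost its call without EC replicate 1 (edgeR adjusted p = 0.0562) or EC replicate 3 (0.0539).

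Matrix genes were mostly higher in HE among those called. In the list of extracellular matrix genes and proteases 8 of 57 tested members rose and 2 fell, with a median log2 difference of 0.58. Its higher calls came to 5 without EC replicate 1 or 3. With fewer libraries the lower calls were 1 without EC replicate 1 and 0 without HE replicate 2 or 3 or EC replicate 2 or 3. Fn1, fibronectin (mm9 chr1:71632047-71699808), measured 1363, 1961 and 1805 CPM in HE and 206, 453 and 321 CPM in EC. Its HE values were far above its EC values throughout, by log2 2.39 ± 0.26 (SE, edgeR adjusted p = 1.66e-06). Fbn1, the microfibril protein fibrillin, measured 168, 336 and 259 CPM in HE and 18.8, 46.8 and 21.3 CPM in EC. HE replicate 2 was the highest, and the log2 difference was 3.13 ± 0.40 (SE, edgeR adjusted p = 2.84e-05). Ecm1, a secreted matrix protein, measured 251, 239 and 209.8 CPM in HE and 79.4, 88.2 and 73.4 CPM in EC. No overlap was seen, with a log2 difference of 1.54 ± 0.25 (SE, edgeR adjusted p = 4.27e-04). Lama5, a laminin chain of mature vessels, measured 23.2, 39.9 and 35.7 CPM in HE and 4.69, 6.11 and 4.52 CPM in EC. All 3 HE values were above EC, by log2 2.69 ± 0.57 (SE, edgeR adjusted p = 0.00626). Lama1, the laminin chain of early basement membranes, fell and measured 10.9, 2.06 and 0.658 CPM in HE and 12.3, 35.9 and 30.1 CPM in EC. HE replicate 1 came within reach of EC replicate 1 without crossing it, with a log2 difference of -2.51 ± 0.67 (SE, edgeR adjusted p = 0.0343). Lama1 lost its call without HE replicate 2 (edgeR adjusted p = 0.175), HE replicate 3 (0.135), EC replicate 2 (0.116) or EC replicate 3 (0.0938).

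Of 23 tested integrin subunits 4 rose and the other 19 did not pass the test, with a median log2 difference of 0.48. Calls of higher members numbered 2 without HE replicate 2 or EC replicate 2, or without HE replicate 1 and EC replicate 2 together and 1 without EC replicate 1 or 3. They were Itgb3, Itgav, Itga4 and the leukocyte subunit Itgb2. Itga4 lost its call without HE replicate 2 (edgeR adjusted p = 0.108), EC replicate 1 (0.103) or EC replicate 3 (0.0755). Itgav, the partner of Itgb3 in the vitronectin receptor, measured 61.7, 107 and 59.8 CPM in HE and 22.5, 35.2 and 37.5 CPM in EC. HE was above EC in each library, by log2 1.26 ± 0.34 (SE, edgeR adjusted p = 0.0357). Itgav lost its call without HE replicate 2 (edgeR adjusted p = 0.238), EC replicate 1 (0.174), EC replicate 2 (0.0778) or EC replicate 3 (0.0703). Itgb2 summed to 129 counts in HE and 0 in EC, and was at least 37.8-fold higher in HE when 3 counts summed over EC are taken as the floor. HE replicate 2 held almost none of them. Itgb2 lost its call without HE replicate 1 (edgeR adjusted p = 0.0917), HE replicate 3 (0.111), EC replicate 1 (0.149), EC replicate 2 (0.128) or EC replicate 3 (0.141). Spp1, osteopontin, a ligand of Itgav and Itgb3, measured 21.8, 17.4 and 7.9 CPM in HE and 1.2, 0.157 and 0.0503 CPM in EC. HE replicate 3 was the lowest of HE and above all EC libraries, with a log2 difference of 5.01 ± 1.09 (SE, edgeR adjusted p = 0.00866). Spp1 lost its call without EC replicate 2 (edgeR adjusted p = 0.0522) or EC replicate 3 (0.0553).

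The window before the start of Spp1 is shown because Spp1 was among the 15 largest rises and holds the Runx core letters. It lies at chr5:104434861-104435110, plus strand (GRCm38.p6, RefSeq), and the capitals mark the complement ACCACA, which begins 128 bases before the start.

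Spp1: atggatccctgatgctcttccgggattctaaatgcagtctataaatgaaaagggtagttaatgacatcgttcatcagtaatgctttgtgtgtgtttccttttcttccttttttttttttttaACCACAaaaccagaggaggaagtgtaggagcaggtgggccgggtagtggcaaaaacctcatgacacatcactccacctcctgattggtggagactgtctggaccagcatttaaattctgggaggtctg

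Growth and replication genes were lower in HE where they were called. Of 40 tested S phase and replication genes 5 fell and the other 35 did not pass the test, with a median log2 difference of -0.62. In 19 of the 40 every HE library was below every EC library, against 8.96% of all genes tested. Left-out libraries changed the lower calls to 3 without HE replicate 1, or without HE replicate 1 and EC replicate 2 together, 2 without HE replicate 2, 1 without EC replicate 1, 2 or 3 and 0 without HE replicate 3. The 5 were the replicative helicase genes Mcm3, Mcm4 and Mcm5, Mcm10, which helps to activate that helicase, and the chromatin remodeller Hells. Mcm4 measured 175, 167 and 161 CPM in HE and 273, 287 and 268 CPM in EC. The groups were tight and did not overlap, with a log2 difference of -0.72 ± 0.20 (SE, edgeR adjusted p = 0.0398). Mcm3 measured 154, 137 and 167 CPM in HE and 239.5, 231 and 232 CPM in EC. Here too each HE value was below each EC value, by log2 -0.62 ± 0.17 (SE, edgeR adjusted p = 0.039). Hells measured 52.4, 85.9 and 61.9 CPM in HE and 135, 116 and 124 CPM in EC. Its values did not overlap, with a log2 difference of -0.91 ± 0.24 (SE, edgeR adjusted p = 0.0281). Mcm3 lost its call without any 1 of the 6 libraries (edgeR adjusted p from 0.0693 to 0.183). Mcm4 lost its call without any 1 of the 6 libraries (edgeR adjusted p from 0.0783 to 0.139). Mcm5 lost its call without HE replicate 2 (edgeR adjusted p = 0.173), HE replicate 3 (0.114), EC replicate 1 (0.183) or EC replicate 2 (0.0513). Mcm10 lost its call without HE replicate 1 (edgeR adjusted p = 0.0507), HE replicate 3 (0.194), EC replicate 2 (0.166) or EC replicate 3 (0.0562). Hells lost its call without HE replicate 1 (edgeR adjusted p = 0.138), HE replicate 3 (0.129), EC replicate 1 (0.0971) or EC replicate 3 (0.0733). The mitosis list held no call among 40 tested by edgeR, with a median log2 difference of -0.33, 3 members lower at an unadjusted p under 0.05 and 0 called by DESeq2 or limma voom. The lower calls numbered 1 without HE replicate 1 and EC replicate 2 together. Of 32 tested cell cycle regulators 2 fell, Ccnd1 and E2f5, and 0 rose, but the median log2 difference was 0.32. In 10 of the 32 every HE library was above every EC library, against 11.4% of all genes tested, and in 3 below, against 8.96%. E2f5 lost its call without any 1 of the 6 libraries (edgeR adjusted p from 0.0778 to 0.181). Ccnd1, the cyclin that starts the cycle, measured 60.4, 30.1 and 38.1 CPM in HE and 169, 89.3 and 125 CPM in EC. HE was below EC in each library, by log2 -1.58 ± 0.31 (SE, edgeR adjusted p = 0.00323).

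E2F factors, which drive S phase genes, bind the letters TTCCCGC. The window before the start of Hells is shown because it holds them once in a gene that fell. It lies at chr19:38930740-38930989, plus strand (GRCm38.p6, RefSeq), and the match in capitals begins 61 bases before the start.

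Hells: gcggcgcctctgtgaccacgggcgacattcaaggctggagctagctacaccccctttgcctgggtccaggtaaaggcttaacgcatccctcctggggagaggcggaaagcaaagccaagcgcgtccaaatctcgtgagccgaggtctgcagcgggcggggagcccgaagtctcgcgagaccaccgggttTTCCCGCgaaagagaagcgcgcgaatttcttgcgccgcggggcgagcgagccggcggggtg

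On either strand these letters were present in 10 of the 33 S phase windows matched (30.3%), against 6.71% of all 12009. They were in 6.4% of the windows of higher and 6.88% of those of lower genes, so over all calls their share was near that of all genes tested.

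Ribosome biogenesis and Myc genes gave 6 lower calls among 45 tested, and the other 39 did not pass the test. The median log2 difference was -0.56, and in 18 of the 45 every HE library was below every EC library, against 8.96% of all genes tested. This count of lower calls was 3 without HE replicate 1, 2 without HE replicate 2 or 3 or EC replicate 1 and 1 without EC replicate 3. Odc1, the first enzyme of polyamine synthesis and a Myc target, measured 81.8, 62.4 and 53.1 CPM in HE and 183, 134 and 181 CPM in EC. The groups did not overlap, with a log2 difference of -1.34 ± 0.25 (SE, edgeR adjusted p = 0.00201). Sat1, which breaks polyamines down, moved the other way and measured 1711, 2231 and 1972 CPM in HE and 247, 637 and 269 CPM in EC. HE was above EC by a wide margin in each library, by log2 2.36 ± 0.32 (SE, edgeR adjusted p = 6.61e-05). Myc measured 61.7, 41.7 and 54.9 CPM in HE and 133, 128 and 209.7 CPM in EC. Its HE values were all below EC, by log2 -1.57 ± 0.44 (SE, edgeR adjusted p = 0.0449). Myc lost its call without any 1 of the 6 libraries (edgeR adjusted p from 0.0613 to 0.195). Heatr1, a factor of ribosomal RNA synthesis, fell by log2 -0.97 ± 0.22 (SE, edgeR adjusted p = 0.0105). Heatr1 lost its call without HE replicate 1 (edgeR adjusted p = 0.0836), EC replicate 2 (0.0539) or EC replicate 3 (0.0501).

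In the glycolysis and hypoxia list 5 of 38 tested members fell and 2 rose, with a median log2 difference of -0.55. Its higher calls came to 1 without HE replicate 2 or EC replicate 2 or 3, or without HE replicate 1 and EC replicate 2 together and 0 without HE replicate 3 or EC replicate 1. With fewer libraries the lower calls were 3 without EC replicate 3, or without HE replicate 1 and EC replicate 2 together, 2 without HE replicate 3 or EC replicate 1 and 1 without HE replicate 2. The enzymes Pkm and Pfkp, a pyruvate kinase and a phosphofructokinase, were among those that fell. Pfkp lost its call without HE replicate 2 (edgeR adjusted p = 0.0503) or EC replicate 2 (0.0606). Pkm measured 672, 457 and 600.4 CPM in HE and 1732, 1209 and 1167 CPM in EC. No HE value reached an EC value, with a log2 difference of -1.25 ± 0.32 (SE, edgeR adjusted p = 0.0286). Pkm lost its call without HE replicate 2 (edgeR adjusted p = 0.153), HE replicate 3 (0.087) or EC replicate 1 (0.127). P4ha1, a prolyl hydroxylase of collagen that responds to hypoxia, measured 53.7, 32.2 and 37.8 CPM in HE and 99.3, 73.5 and 94.7 CPM in EC. It was lower in each HE library, by log2 -1.11 ± 0.22 (SE, edgeR adjusted p = 0.00326). The hypoxia factor Epas1 rose and measured 232, 272 and 280.2 CPM in HE and 59.5, 115 and 56.3 CPM in EC. EC replicate 2 was the highest of EC and below all HE libraries, with a log2 difference of 1.76 ± 0.47 (SE, edgeR adjusted p = 0.0326). Epas1 lost its call without HE replicate 2 (edgeR adjusted p = 0.0888), HE replicate 3 (0.0933), EC replicate 1 (0.141) or EC replicate 3 (0.15). Ppargc1a, a coactivator of mitochondrial genes, rose from near 0 and measured 4.97, 15.2 and 9.65 CPM in HE and 0.043, 0.157 and 0.101 CPM in EC. The groups were far apart, with a log2 difference of 6.58 ± 1.18 (SE, edgeR adjusted p = 0.00116).

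**Figure D4:**
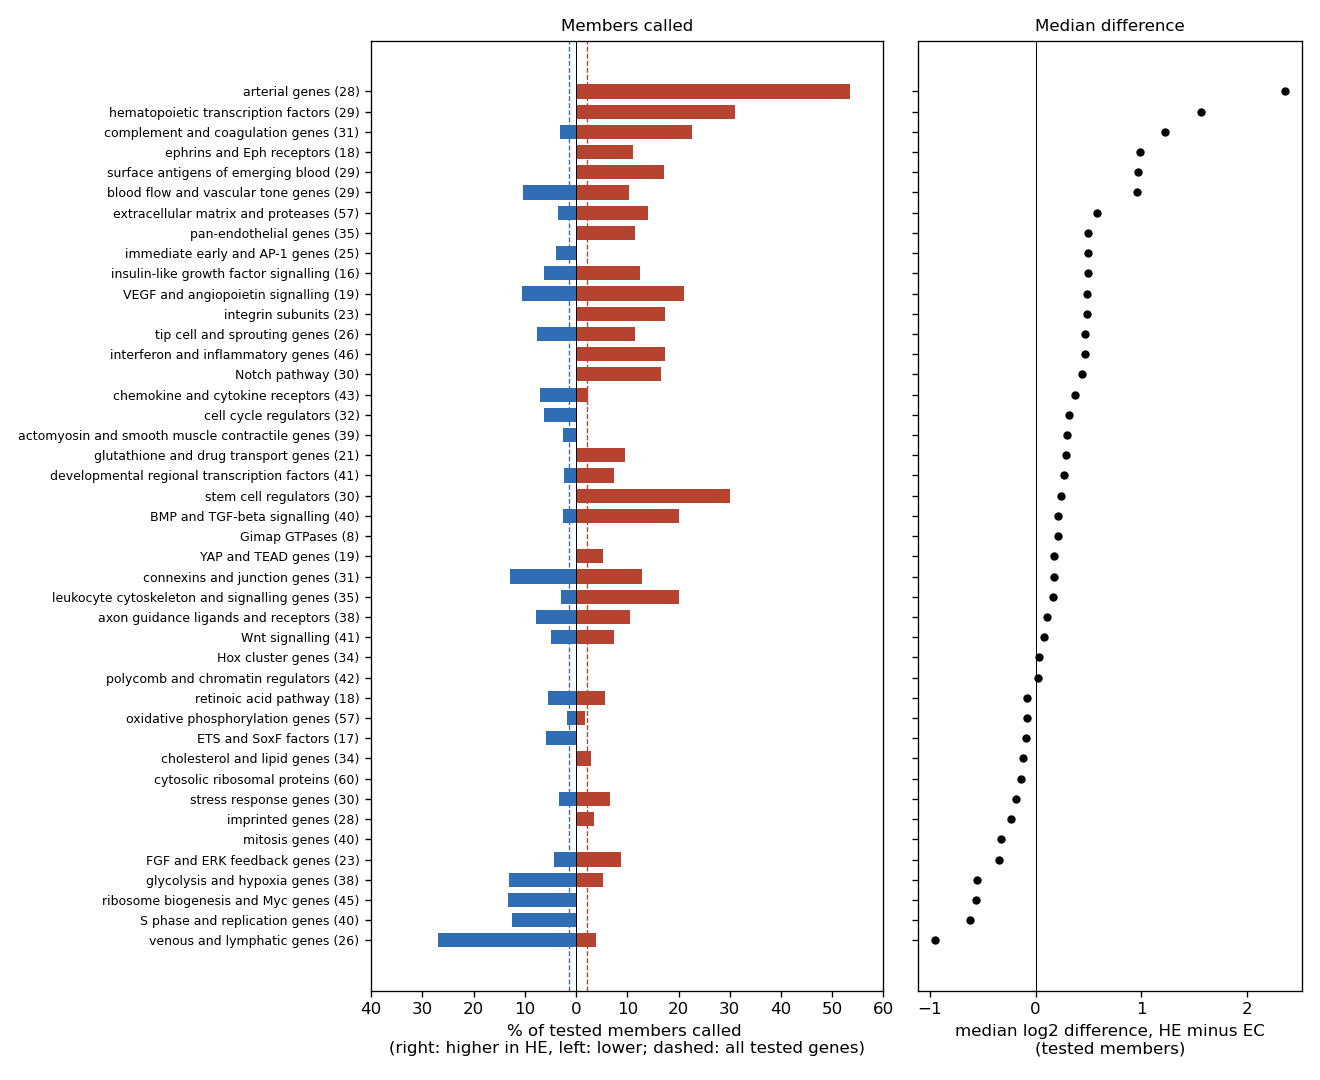
Share of the tested members of each list called higher (right) or lower (left) in HE, with the shares of all tested genes dashed, and the median log2 difference of each list. Arterial genes have the highest median (2.35) and venous and lymphatic genes the lowest (-0.95).

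The genes with the largest rises outside these groups were of several kinds. Nupr1, a nuclear stress protein (mm9 chr7:133766760-133768984), measured 54.1, 84 and 56.1 CPM in HE and 0.129, 0.104 and 0.653 CPM in EC. Each EC library was under 1 CPM, and the log2 difference was 7.77 ± 0.72 (SE, edgeR adjusted p = 2.98e-07). Aqp1, a water channel of endothelium and red cells, measured 14.9, 5.85 and 13.6 CPM in HE and 0, 0.0522 and 0.201 CPM in EC. EC was at or near 0, with a log2 difference of 7.03 ± 1.30 (SE, edgeR adjusted p = 0.00157). Met, the receptor of hepatocyte growth factor, measured 32.7, 37.5 and 48 CPM in HE and 0.86, 1.93 and 1.16 CPM in EC. All HE values were well above EC, by log2 4.90 ± 0.83 (SE, edgeR adjusted p = 7.82e-04). Zbtb4, a zinc finger repressor, measured 17.6, 14.7 and 16.2 CPM in HE and 0.301, 0.992 and 0.352 CPM in EC. HE was tightly grouped, and the log2 difference was 4.88 ± 0.78 (SE, edgeR adjusted p = 3.47e-04). Akr1c14, a steroid-reducing enzyme of the aldo-keto family, measured 43.8, 127 and 88.4 CPM in HE and 3.05, 7.83 and 0.503 CPM in EC. HE replicate 1 was the lowest of HE and above all EC libraries, by log2 4.51 ± 0.82 (SE, edgeR adjusted p = 0.00164). Slc46a3, a lysosomal transporter, measured 9.29, 21.2 and 8.51 CPM in HE and 0.172, 0.209 and 0.0503 CPM in EC. HE replicate 2 was the highest, and the log2 difference was 6.44 ± 0.92 (SE, edgeR adjusted p = 1.07e-04). Cldn10, a claudin, summed to 552 counts in HE and 0 in EC, at least 162-fold higher in HE by the same floor. For S100a4, a calcium-binding protein, the same bound was 58-fold on 198 counts. Cldn10 lost its call without EC replicate 1 (edgeR adjusted p = 0.075), EC replicate 2 (0.0635) or EC replicate 3 (0.0732). S100a4 lost its call without EC replicate 1 (edgeR adjusted p = 0.0825), EC replicate 2 (0.0705) or EC replicate 3 (0.0777). Both were picked for their counts of 0 in EC after their values were seen.

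Among the largest falls, Oit3 had 863 counts summed over EC and 2 summed over HE, a ratio of EC to HE of 491 (95% counting interval 135 to 4060.2). Its protein is secreted and known from liver. Gpr183, a receptor of oxysterols, measured 2.38, 8.35 and 5.22 CPM in HE and 81.9, 68.9 and 70.9 CPM in EC. No overlap was seen, with a log2 difference of -3.80 ± 0.86 (SE, edgeR adjusted p = 0.0107). Gpr183 lost its call without HE replicate 1 (edgeR adjusted p = 0.0586) or HE replicate 3 (0.0601). Gpr97, an adhesion receptor also known as Adgrg3, measured 6.59, 0.491 and 12.6 CPM in HE and 64.4, 51.4 and 83.9 CPM in EC. HE was uneven and far below EC, by log2 -3.34 ± 0.56 (SE, edgeR adjusted p = 5.72e-04). Ptpn7, a phosphatase of blood cells, measured 1.01, 1.47 and 0.483 CPM in HE and 15.1, 2.24 and 13.7 CPM in EC. EC replicate 2 was the lowest of EC and above all HE libraries, by log2 -3.39 ± 0.57 (SE, edgeR adjusted p = 5.92e-04). Clec1b, the receptor CLEC-2 of platelets, measured 43, 20.5 and 16 CPM in HE and 123, 129 and 94.3 CPM in EC. It was lower in each HE library, by log2 -2.12 ± 0.41 (SE, edgeR adjusted p = 0.0024).

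Regional transcription factors gave 3 higher calls and 1 lower call among 41 tested, with a median log2 difference of 0.27. Over all tested genes 2.11% were called higher and 1.37% lower, and the lower count was near that share. Calls of lower members numbered 0 without HE replicate 1 or 3 or EC replicate 1, or without HE replicate 1 and EC replicate 2 together. Isl1, a LIM homeobox factor of heart and motor neuron progenitors, measured 49, 74.3 and 66.3 CPM in HE and 3.4, 8.04 and 6.38 CPM in EC. HE was far above EC in each library, by log2 3.41 ± 0.36 (SE, edgeR adjusted p = 1.08e-06). Gata6, a factor of heart and endoderm, rose by log2 2.12 ± 0.55 (SE, edgeR adjusted p = 0.0286). Gata6 lost its call without HE replicate 2 (edgeR adjusted p = 0.135), HE replicate 3 (0.0768), EC replicate 1 (0.148) or EC replicate 3 (0.109). Snai1, which drives epithelial to mesenchymal change, fell and measured 2.05, 3.05 and 2.41 CPM in HE and 29.6, 14.9 and 15.6 CPM in EC. All EC values were several times the HE values, by log2 -3.0 ± 0.67 (SE, edgeR adjusted p = 0.0107). Snai1 lost its call without HE replicate 1 (edgeR adjusted p = 0.0515), HE replicate 3 (0.0594) or EC replicate 1 (0.0574). Tmem100, known from arterial endothelium and endocardium, measured 741, 896 and 739 CPM in HE and 73.5, 64.5 and 27.3 CPM in EC. HE was far above EC in each library, by log2 3.85 ± 0.61 (SE, edgeR adjusted p = 3.01e-04). Npr3, a natriuretic peptide receptor of endocardium, measured 158, 258 and 242 CPM in HE and 21.2, 47.9 and 20.5 CPM in EC. Its groups did not overlap, with a log2 difference of 2.88 ± 0.40 (SE, edgeR adjusted p = 8.13e-05).

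Markers of other cell types were read beside these results, as CPM summed over each list. For mesenchyme and smooth muscle the sums were 993, 232 and 424 in HE replicates 1 to 3 and 27.5, 417 and 43.0 in EC replicates 1 to 3. HE replicate 1 and EC replicate 2 were thus the highest of their groups. The collagen gene Col1a1 measured 116, 0.147 and 0.0439 CPM in HE and 0, 50.6 and 1.46 CPM in EC. Only those same 2 libraries held it above 2 CPM. Acta2, smooth muscle actin, measured 403, 148 and 273 CPM in HE and 7.69, 95.2 and 13.5 CPM in EC. The HE values all exceeded those of EC, but with all libraries none of the 16 tested members of the list was called by edgeR. Without EC replicate 2, and also without HE replicate 1 and EC replicate 2 together, edgeR called 2 higher, and Acta2 was 1 of them without EC replicate 2 (edgeR adjusted p = 0.0179). With all libraries, at an unadjusted p under 0.05 there were 2 higher members, limma voom called 3 and DESeq2 1, and Gli1 was at 0 in HE. With HE replicate 1 and EC replicate 2 both left out, 381 genes were called, 219 higher and 162 lower, and 288 of them were among the 530. The cardiac sum was 179 in HE replicate 1, 30.4 and 41.7 in the other HE libraries and 12.6 to 14.2 in EC, and Nkx2-5, Nppa and Myl3 were at 0 in all 6. Of its 10 tested members 2 were above EC in every HE library, against 11.4% of all genes tested. Against 2.11% of all genes, 1 of the 10 was called higher, the troponin gene Tnni1, by log2 2.98 ± 0.83 (SE, edgeR adjusted p = 0.0427). Tnni1 lost its call without any 1 of the 6 libraries (edgeR adjusted p from 0.0685 to 0.14). The list also had 0 calls without HE replicate 1 and EC replicate 2 together. Sums for macrophages and granulocytes ran from 15.5 to 19.8 in HE and 9.90 to 20.3 in EC, with Emr1 and the C1q genes at 0 in both. Lyz2, a lysozyme of that list, was the exception, with 200 counts over HE and 1 over EC, a ratio of 176 (95% counting interval 31.2 to 6978), and reads of its near copy Lyz1 may be shared with it. It was the 1 call of the list, which held 2 higher calls without EC replicate 2 and without HE replicate 1 and EC replicate 2 together. Erythroid sums were 50.6 to 61.6 in HE and 48.3 to 84.4 in EC, with the adult globin genes Hba-a1 and Hbb-b1 at 0. These have near copies, and the counting of shared reads is not given, so their 0 need not mean absence. The embryonic globin genes Hba-x, Hbb-bh1 and Hbb-y held counts in both groups. The mesonephros sum was 100.1 to 165 in HE and 24.1 to 33.0 in EC, nearly all of it Gata3 and Ret, which were its 2 calls (1 without HE replicate 1 and EC replicate 2 together), while Pax2, Pax8, Lhx1 and Emx2 were at 0 in HE. Ret, the receptor of glial-derived neurotrophic factor, measured 12.1, 26.8 and 15 CPM in HE and 0.172, 1.15 and 0.503 CPM in EC. Its HE libraries all stood above EC, by log2 4.89 ± 0.81 (SE, edgeR adjusted p = 5.29e-04). The neural sum, 439 to 579 in HE and 79.6 to 98.8 in EC, came almost wholly from Stmn2, with Sox1, Sox2 and Sox10 at 0 in both groups. The endoderm and epithelium sum was 60.2 to 98.6 in HE and 19.8 to 32.7 in EC, with Foxa1, Alb and Ttr at 0 in both groups. Of its 11 tested members edgeR called 0, while limma voom called 2 and DESeq2 1 higher, and 2 were higher at an unadjusted p under 0.05. The megakaryocyte and platelet sum was 477 to 537 in HE and 164 to 231 in EC, and of 16 tested members Itgb3 and Vwf rose and Clec1b fell, with Gp6 at 0 in both groups. The endocardial sum was 1489 to 1861 in HE and 784 to 1013 in EC, and of 10 tested members Tmem100 and Npr3 rose and Hapln1, a matrix link protein, fell. Hapln1 lost its call without HE replicate 2 (edgeR adjusted p = 0.131) or EC replicate 2 (0.0723). Germ cell sums were 50.3 to 83.5 in HE and 81.4 to 138 in EC, and mast cell and lymphoid sums 17.2 to 32.3 in HE and 30.9 to 36.5 in EC. The part of other cell types in the differences was not tested beyond these values.

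Levels in the other E10.5 populations placed the differences on a wider scale, as a description with no test. The conditions for naming, which include no overlap between HE and EC, were met by 263 higher genes. Of these, 147 had their highest level of the 4 E10.5 populations in every HE library. The share over all tested genes was not worked out, and HE above EC in every library was already a condition of entry. The count is therefore not read as a trait of HE. By the ratio to the next population the leading ones were Tm4sf1, Tmem100, Mall, Emp2, Plat, Sdpr, Sat1 and Hey2. Tmem100 averaged 106 ± 16.7 CPM in pre-HSC I and 2.37 ± 1.29 CPM in pre-HSC II. Tm4sf1 averaged 35.9 ± 7.7 CPM in pre-HSC I and 2.68 ± 2.92 CPM in pre-HSC II. Hey2 averaged 20.3 ± 5.87 CPM in pre-HSC I and 0.418 ± 0.373 CPM in pre-HSC II. That these genes were lower in pre-HSCs than in HE follows from the rule that picked them. Emp2 and Mall are membrane proteins, and Emp2 sat at the threshold of the HE to EC test. Emp2 lost its call without HE replicate 1 (edgeR adjusted p = 0.065), HE replicate 2 (0.232), HE replicate 3 (0.0701), EC replicate 1 (0.122) or EC replicate 2 (0.173). Runx1 in contrast averaged 225 ± 50.9 CPM in pre-HSC I and 249 ± 59.5 CPM in pre-HSC II, and Meis1 194 ± 5.95 CPM in pre-HSC I and 224 ± 35.3 CPM in pre-HSC II, above HE in both cases. Of the 172 lower genes that met the same conditions, 88 had their highest level in every EC library, with Gpr183, Aplnr, Bmp4, Lhx6, Oit3 and Nr2f2 among the leading ones. That count has the same limits and is not read as a trait of EC. Bmp4 averaged 3.99 ± 2.84 CPM in pre-HSC I and 0.312 ± 0.149 CPM in pre-HSC II, and Aplnr 8.33 ± 3.92 CPM in pre-HSC I and 1.15 ± 1.15 CPM in pre-HSC II. Lhx6 lost its call without any 1 of the 6 libraries (edgeR adjusted p from 0.0747 to 0.175).

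The same comparison a day earlier was set beside the E10.5 values, with no library in common. Of the 321 genes higher in HE at E10.5, 300 (93.5%) were also above EC at E9.5, at a median log2 difference of 1.14, against 2.24 at E10.5. Over all tested genes above 0 at E10.5 that share was 62.4%. Of the 209 lower genes 187 (89.5%) were also below EC at E9.5, at a median of -0.40, against -1.53 at E10.5, and the share over all genes below 0 was 65.6%. Both sets were chosen by their E10.5 values, which makes their E10.5 medians larger. Smaller medians at E9.5 therefore do not show that the difference grew between the days. A test of the change in the HE to EC difference called 2 genes (0.0131% of those tested), Oit3 and Spry1, with 424 higher and 413 lower at an unadjusted p under 0.05. Limma voom called 48 and DESeq2 40. Oit3 averaged 8.19 ± 3.22 CPM in HE and 8.63 ± 4.45 CPM in EC at E9.5, where the ranges of mean and SD overlapped. The HE to EC difference was lower at E10.5 by log2 -8.67 ± 1.49 (SE, edgeR adjusted p = 0.0397), a fitted value that depends on the near absence of reads in E10.5 HE. Spry1 averaged 12.7 ± 3.63 CPM in HE and 15.6 ± 3.79 CPM in EC at E9.5, and its difference changed by log2 -3.45 ± 0.61 (SE, edgeR adjusted p = 0.0397). When 1 of the 12 libraries of the 2 days was left out, Oit3 kept its call in 2 and Spry1 in 3 of 12 runs, with an edgeR adjusted p of at most 0.175 for either. Without E10.5 HE replicate 2 or 3, E10.5 EC replicate 1, E9.5 HE replicate 2 or E9.5 EC replicate 1 or 3 the test called 0 genes, and without E9.5 EC replicate 2 it called 1.

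The comparison at E8.5 was read in the same way. Of the higher genes 239 of 321 (74.5%) and of the lower genes 116 of 209 (55.5%) had the same sign, against 56.5% and 56.7% over all genes of that sign. The difference between HE and EC departed from that at E8.5 in 455 genes (2.99%), 134 toward HE (0.879%) and 321 toward EC (2.11%), and 170 of the 455 were among the 530. Runx1 averaged 2.76 ± 1.16 CPM in HE and 3.61 ± 2.07 CPM in EC at E8.5, and its difference changed by log2 4.78 ± 0.51 (SE, edgeR adjusted p = 2.63e-06). Jag1 averaged 173 ± 47.8 CPM in HE and 498 ± 215 CPM in EC at E8.5, where EC was the higher group, and its difference changed by log2 4.11 ± 0.46 (SE, edgeR adjusted p = 3.82e-06). Nupr1 averaged 4.01 ± 1.82 CPM in HE and 3.54 ± 2.78 CPM in EC at E8.5, a change of log2 7.59 ± 0.84 (SE, edgeR adjusted p = 3.35e-06). Other genes had been higher in HE at E8.5 and were lower at E10.5. Igf1 averaged 486 ± 204 CPM in HE and 105 ± 39.4 CPM in EC at E8.5 and its difference changed by log2 -4.43 ± 0.48 (SE, edgeR adjusted p = 2.63e-06). Pde2a averaged 27.6 ± 13.4 CPM in HE and 1.69 ± 1.59 CPM in EC at E8.5 and changed by log2 -7.06 ± 0.76 (SE, edgeR adjusted p = 2.63e-06). Clec1b averaged 133 ± 23.4 CPM in HE and 12.8 ± 2.91 CPM in EC at E8.5 and changed by log2 -5.50 ± 0.59 (SE, edgeR adjusted p = 2.63e-06). Cd109, a surface glycoprotein, averaged 100.2 ± 68.2 CPM in HE and 0.23 ± 0.104 CPM in EC at E8.5. At E10.5 it measured 67.7, 77 and 109 CPM in HE and 38.2, 47.6 and 60.4 CPM in EC, so that the separation was far smaller, and the change was log2 -7.95 ± 0.66 (SE, edgeR adjusted p = 5.48e-08). Each of these calls held in all 13 runs that left out 1 library of the 2 days.

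**Figure D5:**
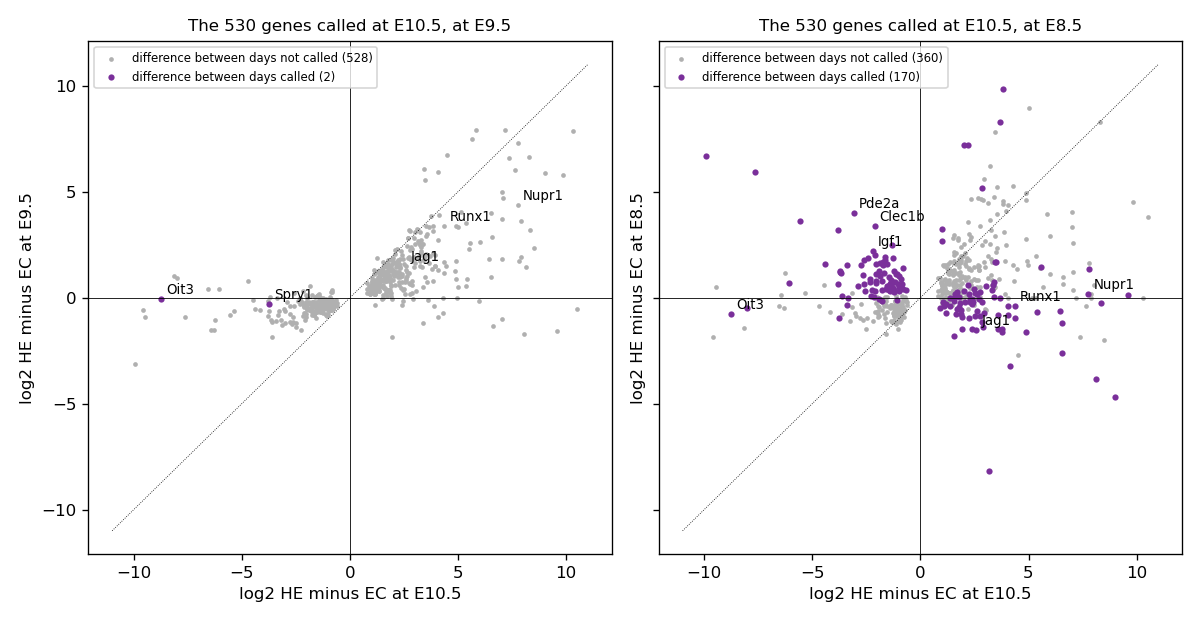
Log2 difference between HE and EC at E10.5 against that at E9.5 and at E8.5, 1 point per gene called at E10.5. Most points share their sign at E9.5 (300 of 321 higher and 187 of 209 lower genes) and 239 and 116 of them do at E8.5.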

How the data were processed

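The deposited table holds raw counts per gene symbol with mm9 coordinates and exon lengths, in the column layout of featureCounts per the file headers. The submitters' processing notes name TopHat, SAMtools, Subread, featureCounts 1.6.2 and the build mm9. Libraries were made from 100 cells with a low-input kit for polyadenylated RNA, per the labels' protocols. Strand setting, annotation release and the handling of multi-mapped reads are each not given in the sources used here, so genes that overlap another on the opposite strand (Dll4, Bmp4, Cd34, Fgfr1, Igf2, Itga4, Pfkp, Gata6, Dkc1, Gnl3, E2f5 and Lyl1 among those analysed) and near copies are uncertain. Nrp1 holds a microRNA gene in its exons.

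Columns were tied to libraries through their names. Of 24015 genes, 5484 were at 0 in the 6 libraries, and edgeR 4.0.16 in R 4.3.3 (filterByExpr, minimum count 10) kept 15238. TMM scaling and a quasi-likelihood fit with 1 coefficient for each of the 9 populations used all 28 libraries (19 residual degrees of freedom, common biological coefficient of variation 0.563). HE against EC at E10.5 was 1 contrast, and its departures from E9.5 and E8.5 were 2 more. Genes were called at an adjusted p under 0.05 (Benjamini-Hochberg). The SE is the log2 difference divided by the square root of F. Where a group had 0 counts a fold is a bound against 3 counts over the group, and with 1 to 3 counts it is a ratio with a 95% exact interval. Amplified reads are not independent molecules, so both cover only counting error. Replicates differed by more than sampling noise (chi-square divided by its degrees of freedom was 36.5 or more in each pair).

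Genes were named by a rule: the 15 largest rises and falls without overlap that reach 10 CPM in the higher group, up to 5 called members of each list in each direction, a panel, the 10 smallest p of each difference between days, and the 8 highest in HE or in EC among E10.5 populations. The few genes named outside it had counts of 0 in a group, completed a list or were cell type markers, and were chosen after their values were seen. The lists, the panel and the choice of HE against EC at E10.5 were made with earlier results of these data known. Not all named genes are described. Promoter windows are RefSeq, GRCm38.p6.

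On simulated data of 14782 genes the HE against EC fit found 23.9% of 2-fold, 86.6% of 4-fold and 98.5% of 8-fold changes, and 4 of its 143 calls were false. The changes were placed only on genes of at least 10 CPM. Counts were drawn from the trend of spread with level, without spread particular to a gene or an outlying library. These shares may therefore be better than those on the real libraries. Alternatives were DESeq2 1.42.0, limma voom 3.58.1 with quality weights, 2 other scalings, no filter, a filter of 10 CPM in 3 libraries, a fold minimum, only the populations compared, the replicate number as a block, and leaving out libraries.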

Additional observations from a re-analysis of the deposited data

Results flagged for a closer look

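The difference between HE and EC itself differed between days for the genes named here, by the edgeR test of that change in the model over all libraries. Against E9.5 the change was log2 -8.67 for Oit3 and -3.45 for Spry1, toward EC at E10.5, calls that were kept in 2 and 3 of 12 runs with 1 library left out. Against E8.5, Runx1 changed by log2 4.78, Nupr1 by 7.59 and Jag1 by 4.11, toward HE at E10.5. Toward EC at E10.5 moved Cd109 by log2 -7.95, Clec1b by -5.50, Igf1 by -4.43 and Pde2a by -7.06. Trpc6, a calcium channel, averaged 5.16 ± 2.51 CPM in HE and 0 ± 0 CPM in EC at E8.5 and 8.55 ± 3.15 CPM in HE and 26.1 ± 7.52 CPM in EC at E10.5. Its fitted change of log2 -11.50 rests on an E8.5 EC group at 0 and is no bound. Sema6d, a semaphorin, averaged 75.2 ± 48.6 CPM in HE and 4.09 ± 1.05 CPM in EC at E8.5 and 79.1 ± 16.2 CPM in HE and 105 ± 29.8 CPM in EC at E10.5, a change of log2 -4.60. Tspan15, a tetraspanin, averaged 16.9 ± 6.6 CPM in HE and 2.03 ± 0.392 CPM in EC at E8.5 and 9.69 ± 2.04 CPM in HE and 19.97 ± 5.9 CPM in EC at E10.5, a change of log2 -4.10. Of these 3 genes none was called between HE and EC at E10.5 (edgeR adjusted p = 0.103, 0.663 and 0.0817). Cause was not tested for any of them.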

How the results depend on the processing

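With 3 libraries of 100 cells in each group, small changes are at the limit of what the test can call, and low genes rest on few counts. Against 530 calls between HE and EC at E10.5, the count was 528 with DESeq2 size factors, 526 with upper-quartile factors, 569 without a filter (474 of them among the 530), 595 with the strict filter (487), 520 with only the 6 libraries in the fit (360), 118 with a fold minimum of log2 1, 1194 by limma voom and 945 by DESeq2. Of the 530, 503 were also called by limma voom and 527 by DESeq2. Leaving out 1 library gave 284 to 455 calls. For the change from E9.5 (2 calls) the count was 10 without a filter, 0 with the fold minimum, 48 by limma voom, 40 by DESeq2 and 0 to 3 with 1 library left out. For the change from E8.5 (455 calls) it was 191 with the fold minimum, 238 with only the populations compared, 788 by limma voom, 794 by DESeq2 and 318 to 525 with 1 library left out. With the replicate number as a block, counts were 1316, 31 and 917 for these 3 comparisons, and 522 of the 530 were among the 1316. The fit without the block was kept as the main one because no label says what a replicate number shares. The deviations of HE and EC libraries with the same number correlated at 0.108, 0.0709 and 0.0286. Of the 6 libraries 5 correlated best with their own number, EC replicate 3 being the exception, which is a hint from the data and not the design. The TMM factor of replicate 1 was 0.924 to 0.987 in the 4 E10.5 populations and that of replicates 2 and 3 was 1.08 to 1.25. Whether libraries of one number were processed together was not tested. With 1 library left out, signs turned for Cbfb (log2 -0.26 to 0.080), Erg (log2 -0.42 to 0.23) and Col1a1 (log2 -7.45 to 5.75). Without both HE replicate 1 and EC replicate 2 they turned for Cbfb (log2 0.064), Fli1 (-0.017), Hes1 (-0.10) and Col1a1 (-2.87), which was also at -2.59 with the block and -2.10 by limma voom. None of these passed the test. Causes were not tested. The median difference of all genes moved by less than 0.1 under each scaling.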

Other observations

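Over all tested genes 3.48% were called between HE and EC at E10.5. The 4 lists that follow held no call by edgeR, a share near that background. Of 34 tested Hox cluster genes, which set position along the body axis, edgeR called 0. An unadjusted p under 0.05 was reached by 1 higher and 5 lower, and calls by DESeq2 numbered 1 and by limma voom 2, all lower. Their median log2 difference was 0.04. Left-out libraries changed the lower calls to 1 without HE replicate 3. For 42 tested polycomb and chromatin regulators edgeR also called 0 (median 0.02), while 6 higher and 2 lower had an unadjusted p under 0.05. DESeq2 gave 2 higher calls and limma voom 1 lower call. The higher calls numbered 1 without HE replicate 3. Among 60 tested cytosolic ribosomal proteins edgeR called 0 (median -0.14), with 1 lower at an unadjusted p under 0.05 and 1 lower by either other tool. The 8 tested Gimap GTPases, which are known from lymphocytes and endothelium, gave 0 calls by edgeR, DESeq2 and limma voom and 0 at an unadjusted p under 0.05 (median 0.21).

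In the oxidative phosphorylation list 1 of 57 tested genes rose, Ppargc1a, and 1 fell, Ndufa8. Over all tested genes 2.11% were called higher and 1.37% lower, so both counts were near that background. Ndufa8, a subunit of complex I, measured 284, 172 and 213 CPM in HE and 546, 349 and 371 CPM in EC. Its groups did not overlap, with a log2 difference of -0.92 ± 0.25 (SE, edgeR adjusted p = 0.0397). Ndufa8 lost its call without HE replicate 2 (edgeR adjusted p = 0.211), HE replicate 3 (0.14), EC replicate 1 (0.208) or EC replicate 3 (0.0616). This count of lower calls was 0 without HE replicate 2 or 3 or EC replicate 1 or 3. Of 18 tested genes of the retinoic acid pathway 1 rose and 1 fell. Its lower calls came to 0 without HE replicate 1 and EC replicate 2 together. Cyp26a1, which degrades retinoic acid, measured 16, 3.73 and 20.8 CPM in HE and 2.79, 0 and 1.71 CPM in EC. Each HE library exceeded EC, by log2 3.14 ± 0.69 (SE, edgeR adjusted p = 0.00811). Dhrs3, which turns retinaldehyde back into retinol, measured 42.5, 44.5 and 67.4 CPM in HE and 141, 198 and 140.4 CPM in EC. It was lower in each HE library, by log2 -1.63 ± 0.33 (SE, edgeR adjusted p = 0.00345). Of 34 tested cholesterol and lipid genes 1 rose, the lipid carrier Apoe, by log2 2.09 ± 0.49 (SE, edgeR adjusted p = 0.0132). That count too was near the background. Apoe lost its call without HE replicate 3 (edgeR adjusted p = 0.105), EC replicate 1 (0.0839) or EC replicate 2 (0.0526). With fewer libraries the higher calls were 0 without HE replicate 3 or EC replicate 1 or 2, or without HE replicate 1 and EC replicate 2 together. Of 30 tested stress response genes 2 rose, Nupr1 and Akr1c14, and 1 fell, Asns, the asparagine synthetase, which measured 24.9, 16.4 and 29.6 CPM in HE and 143, 70.4 and 72.2 CPM in EC. EC replicate 1 was the highest and no values overlapped, with a log2 difference of -2.01 ± 0.45 (SE, edgeR adjusted p = 0.00997). Asns lost its call without HE replicate 2 (edgeR adjusted p = 0.0769) or EC replicate 1 (0.075). Calls of lower members numbered 2 without HE replicate 1 or EC replicate 2, or without HE replicate 1 and EC replicate 2 together and 0 without HE replicate 2 or EC replicate 1. Gsta4, a glutathione transferase, rose and measured 137, 89.7 and 89.9 CPM in HE and 22.8, 14.6 and 19.6 CPM in EC. HE was well above EC in each library, by log2 2.47 ± 0.33 (SE, edgeR adjusted p = 4.97e-05). Igsf3, an immunoglobulin superfamily protein, measured 142, 130.5 and 102 CPM in HE and 23.3, 32.6 and 22.3 CPM in EC. Its HE values were all far above EC, by log2 2.26 ± 0.25 (SE, edgeR adjusted p = 3.03e-06).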
